A study of Mus musculus with 39 samples.

Results

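Gene expression in stromal vascular cells of brown fat was compared between mice on different diets. Mice that ate a high fat, high sucrose diet with 20 µg of the formulation KAL-1 (HF20) were set against mice on a low fat diet (LFC). The question was which genes stayed away from the low fat level under this dose. The comparison used the arrays of Week 3, 9, 12, 15 and 18, at which both diets had an array, so that 5 HF20 arrays and 5 LFC arrays were taken from the 39 of the series and matched by week. The mice were C57BL/6J, a common inbred strain, and were put on the diets after weaning at 3 to 4 weeks of age. LFC food gave 10% of its calories as fat. HF20 food gave 60% and had added sucrose, as did the food of the high fat group without KAL-1 (HFC), whose arrays of the same weeks are given beside the HF20 values. KAL-1 is an aqueous formulation made from plants. The labels state that 5 animals of a group were killed every 3 weeks, and they do not state whether an array holds 1 animal or a pool. Each diet has 1 array per week, so the replicates here are weeks. The fit takes out change over time that both diets share. A standard error (SE) below holds how the difference varied between weeks, with the spread between animals and arrays. An SD of 1 diet also holds its change over time.

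Brown fat burns lipid to make heat. Its fat cells are packed with mitochondria and carry the uncoupling protein Ucp1, which lets the proton gradient run down as heat. They take up fatty acids and also make them from sugar, through the enzymes of lipogenesis that the factors SREBP-1c and ChREBP switch on, and a diet rich in fat is known to lower this synthesis. The stromal vascular cells (SVCs) are what remains of the tissue once fat cells are taken off: blood vessel cells, fibroblasts, preadipocytes, macrophages and other leukocytes. The labels describe the RNA as coming from infiltrating macrophages of this fraction. On the arrays the macrophage genes were present, with 18 to 20 of the 20 tested macrophage markers well above background on each LFC array and 12 to 20 on each HF20 array. Genes of fat cells were present as well. Ucp1, the fat cell hormone Adipoq and the lipid droplet protein Plin1 were well above background on all 10 arrays, and 11 to 16 of 16 general fat cell markers were so on any array. The levels below are therefore those of a mixture, and in a bulk sample fewer cells of a type and less RNA per cell cannot be told apart.

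Some arrays stood apart, and the main values are given with and without them. The 75th percentile of the processed signal, to which each array was scaled, ranged from 18.10 (HF20 Week 9) to 3974 intensity units (HF20 Week 15), and 32.3% to 98% of spots were well above background. On the HF20 Week 15 array 71.4% of spots were marked as uneven or as outliers and left out, against at most 0.516% on the other 9. The control spots named dark corner had a median processed signal of 236.3 on HF20 Week 15 and 108.4 on LFC Week 18. On the other arrays compared it lay between 1.754 and 3.102. At Week 12 bright spots were saturated, for 875 of 15473 genes on the LFC array and 475 on the HF20 array, and for 464 on both. The median difference of these 464 was 0.55, while the scaling of the arrays differed by 0.56 on the log2 scale, so a direction is not read from a pair in which both spots were saturated. The arrays of Week 9, Week 12 and Week 15 shared a scan date within the week, and those of Week 3 and Week 18 did not. The titles of the Week 12 arrays of both diets and of LFC Week 18 carry the letters BA where the others carry B and A apart, with no meaning given. The HF20 Week 12 array has a characteristic naming the high fat diet alone, while its title and source name give HF20, by which it was grouped.

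No gene was shown to differ between HF20 and LFC across the 5 weeks. Of 20255 probes tested, 0 passed an adjusted p of 0.05 (limma with the week as a block, two-sided), which is 0% of them and 0% of the 15477 genes they stand for, and no adjusted p was below 0.753. Without correction, 286 genes were higher in HF20 at p under 0.05 (1.85%) and 254 were lower (1.64%). Without Week 15 these were 287 (1.85%) and 140 (0.905%), and without Weeks 15 and 18 they were 643 (4.15%) and 229 (1.48%). Over probes the split was 342 higher (1.69%) and 358 lower (1.77%), and it depended on the scaling, with 147 and 354 after quantile normalization and 44 and 1177 after normexp background correction. The methods' t-test with weeks as replicates also gave 0 probes after correction, and 607 unadjusted. The median standard error of a difference was 0.64 on the log2 scale. All values below are therefore descriptions of direction and size. Each gene was read from its brightest probe.

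The size of the difference varied with the week. The share of genes at least 2-fold apart between the diets was 16.2% at Week 3, 20.2% at Week 9 and 10.4% at Week 12, with medians over genes of 0.10, 0.01 and 0.05 for the log2 difference (HF20 minus LFC). At Week 15 it was 87.1% of the 7607 genes with a spot left to measure, with a median of -2.81. The scaling percentile of an array was taken over all its spots, on HF20 Week 15 including the 71.4% left out. All Week 15 differences below carry that scaling. At Week 18 the share was 68.1%, with a median of -0.32 and genes apart in both directions (4749 higher and 5477 lower). All Week 18 differences below rest on the LFC array with bright dark corner spots. The correlation of the HF20 and LFC arrays over genes, which are not independent replicates, was 0.947 to 0.974 at the first 3 of these weeks, 0.71 at Week 15 and 0.587 at Week 18. Over all 5 weeks the median difference was -0.27, and 63.5% of genes had a fitted difference below 0. Without Week 15 this share was 52.8% (47.2% above 0), and without Weeks 15 and 18 it was 47.4% (52.6% above 0). A share of lower genes near 63.5% is thus the background against which the gene lists below are read.

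**Figure D1:**
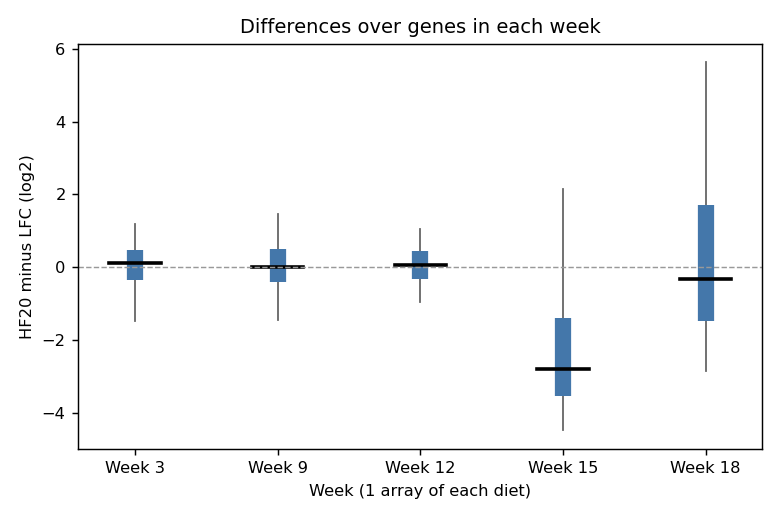
The log2 difference HF20 minus LFC (vertical axis) at each week (horizontal axis), with 1 array per diet and week; the black line is the median over genes, the blue bar the middle 50% of genes and the grey line the 5th to 95th percentile. Weeks 3, 9 and 12 centre near 0 (0.10, 0.01 and 0.05), Week 15 lies low (-2.81) and Week 18 is wide (-0.32).

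Some genes were away from the low fat level in 1 direction at every week measured. With so few weeks, some genes share a sign or do not overlap by chance, and how many was not tested. Genes lower in HF20 in every week measured, with 4 weeks or more, made up 6.83% of those tested (1057), and genes higher in every week 5.43% (840). Of the genes measured at Week 15, 87.1% were below 0, so that week favoured the lower count over the higher one. At least 2-fold in every week, 9 genes were lower (0.0582%) and 10 were higher (0.0646%). The 9 lower genes were Golga7b, Orm2, Tnfrsf12a, Edem3, Gm9112, Insig1, Slc2a5, LOC677051 and Lyst, with fitted differences from -3.63 (Gm9112) to -1.68 (Lyst). The 10 higher genes were Tulp1, Smpd3, Gm2362, Tescl, Bdh2, Hes2, 4930519H02Rik, LOC100045342, Gk and Wnt6, from 1.30 (Wnt6) to 3.17 (4930519H02Rik). The LFC and HF20 levels did not overlap at all for 99 lower genes (0.64%) and 15 higher genes (0.0969%). The HF20 Week 15 array enters these counts too, where it had a spot.

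**Figure D2:**
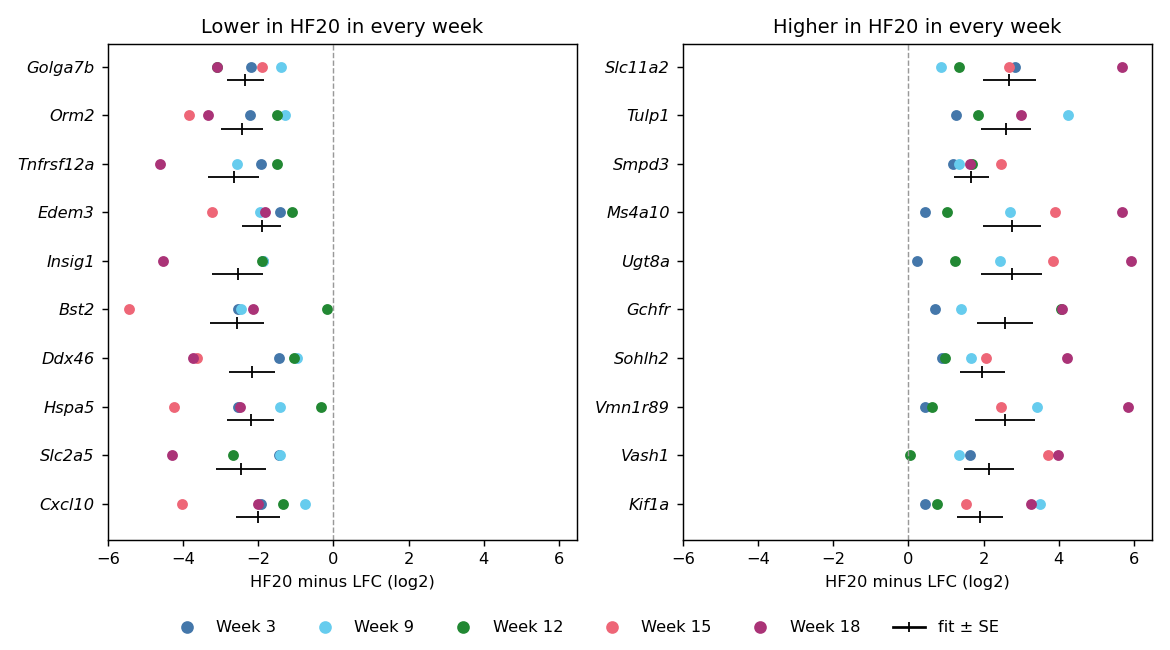
The 10 genes lower and the 10 higher in HF20 that had 1 direction in every week and the smallest unadjusted p; each dot is the log2 difference HF20 minus LFC of 1 week, and the black bar is the fitted difference with its standard error. The lower genes range from -2.65 (Tnfrsf12a) to -1.91 (Edem3) and the higher ones from 1.67 (Smpd3) to 2.75 (Ms4a10); none passed the adjusted threshold.

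Lipid synthesis held several of the lower genes. Of the 20 listed lipogenesis genes 19 could be tested, 17 had a fitted difference below 0, and 5 of these had an unadjusted p under 0.05. Over all genes 63.5% were below 0 and 1.64% were lower at that p. The list median was -1.04, against -0.27 over all genes tested. It was -0.93 without Week 15 (15 of 19 lower) and -0.67 without Weeks 15 and 18 (13 lower, against 47.4% of all genes). By week the list median was -0.26, -0.16, -0.67, -3.42 and -1.85 at Week 3, 9, 12, 15 and 18. At Week 12 the spots of 11 genes were saturated on at least 1 array, and 6 of the other 8 were lower (-0.69).

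Scd1, the desaturase that makes monounsaturated fatty acids, was among the brightest of these genes. Its level, the log2 signal relative to the 75th percentile of the array, was 5.21, 7.91, 5.73, 5.60 and 7.42 in LFC at Week 3, 9, 12, 15 and 18, and 3.33, 4.49, 6.16, -0.02 and 3.82 in HF20. HF20 was the lower of the pair in 4 weeks. At Week 12 the spot was saturated on both arrays, so the pair gives no direction. Over the 5 weeks the fit gave -2.82 (SE 0.80), or 7.04-fold lower, with an adjusted p of 0.753 in limma. It was -2.12 without Week 15 and -1.62 without Weeks 15 and 18. On the HFC arrays of the same weeks the level was 2.27, 4.59, 2.42, 3.19 and 3.98, below LFC in every week. Set side by side, HFC minus LFC was -3.08 (SE 0.37, adjusted p 0.999 in limma) and HF20 minus HFC 0.27 (SE 0.87), the latter -0.60 without Week 12.

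Insig1 holds the SREBP escort protein in the endoplasmic reticulum and is itself an SREBP target. Its level was -2.25, -0.20, 1.67, -2.48 and 2.02 in LFC and -4.12, -2.07 and -0.25 in HF20 at Week 3, 9 and 12, and -2.51 at Week 18, with no spot left at Week 15. The difference was nearly the same at the first 3 of these weeks (-1.87, -1.87 and -1.91) and wider at Week 18 (-4.53). Fitted over the weeks measured it was -2.55 (SE 0.67), or 5.84-fold, and -1.88 without Weeks 15 and 18. The probe was well above background on 5 LFC arrays and 1 HF20 array, so the HF20 levels are those of a dim spot, and the gene's other probe gave -1.46. HFC minus LFC was -1.64.

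Elovl5 lengthens polyunsaturated fatty acids. Its level lay between 3.09 and 4.30 in LFC and was 3.22, 1.59, 2.65, -0.31 and 1.56 in HF20, close to LFC at Week 3 and lower at the other 4 weeks (fitted difference -1.84, SE 0.67, and -0.90 without Weeks 15 and 18). Its other probe gave -1.68. Slc25a1, the mitochondrial citrate carrier that exports the carbon for fatty acid synthesis, was lower in every week, by little at Week 3, 9 and 12 (-0.66, -0.24 and -0.69) and by much at Week 15 and 18 (-4.46 and -4.48). Its fitted difference was -2.11 (SE 0.78), and -0.53 without those weeks, so most of its size came from them. Me1, the malic enzyme that yields NADPH for the same synthesis, was named after its values were seen. It was lower in every week (with a saturated LFC spot at Week 12), at 3.95, 5.52, 5.80, 4.04 and 4.02 in LFC against 2.77, 4.31, 5.45, -0.79 and 3.07 in HF20 (fitted difference -1.70, SE 0.69, and -0.91 without Weeks 15 and 18).

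Fasn, the fatty acid synthase itself, had 2 probes, both with a fitted difference below 0. The level of the brighter one was 7.41, 9.08, 5.58, 8.25 and 7.05 in LFC and 7.16, 9.08, 6.11, 2.53 and 7.24 in HF20. It was saturated on both arrays at Week 12 and on the LFC array at Week 18, and the diets were close at Week 3 and 9 (-0.25 and 0.01) and apart at Week 15 (-5.72). The fitted difference of -1.05 (SE 0.90, adjusted p 0.754 in limma) turned to 0.12 without Week 15, and the other probe gave -1.46 over all weeks. For HFC against LFC it was -1.82 (SE 0.45). The 2 tested members with a fitted difference above 0 were Acacb and Fads1, at 0.95 and 0.80.

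The bases upstream of 3 of the lower genes are shown because the factors that drive lipogenic genes are known to work through short motifs there. Each line gives the 250 bases before the RefSeq gene start on GRCm38.p6, read 5′ to 3′ on the strand of the gene, with the letters CCAAT (as ATTGG where the motif lies on the other strand) or CACGTG in capitals. Insig1 lies at chr5:28071162-28071411 on the plus strand, Elovl5 at chr9:77917115-77917364 on the plus strand and Slc25a1 at chr16:17928220-17928469 on the minus strand.
Insig1: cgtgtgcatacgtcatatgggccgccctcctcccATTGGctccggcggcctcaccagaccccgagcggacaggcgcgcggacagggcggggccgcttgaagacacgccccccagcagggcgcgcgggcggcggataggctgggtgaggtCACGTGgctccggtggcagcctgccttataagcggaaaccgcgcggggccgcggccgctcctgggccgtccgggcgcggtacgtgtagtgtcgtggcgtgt
Elovl5: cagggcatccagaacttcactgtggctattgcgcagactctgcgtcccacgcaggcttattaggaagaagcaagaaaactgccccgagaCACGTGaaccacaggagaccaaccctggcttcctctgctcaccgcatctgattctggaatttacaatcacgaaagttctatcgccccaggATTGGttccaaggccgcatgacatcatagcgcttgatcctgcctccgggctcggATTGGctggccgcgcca
Slc25a1: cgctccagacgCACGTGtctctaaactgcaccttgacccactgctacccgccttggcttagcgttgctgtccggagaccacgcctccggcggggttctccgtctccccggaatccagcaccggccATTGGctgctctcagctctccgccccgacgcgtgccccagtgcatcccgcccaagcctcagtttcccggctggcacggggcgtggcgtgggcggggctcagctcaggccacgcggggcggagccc

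CCAAT, the motif of the factor NF-Y, was found on the other strand in all 3 windows, beginning 216 bases before the start in Insig1, 71 and 17 in Elovl5 and 125 in Slc25a1. CACGTG, an E-box that reads the same on both strands, began 101, 161 and 239 bases before the start. These 3 were chosen for holding both motifs and are no sample of the list. Of all 32851 promoter windows of this length 33.8% held CCAAT and 6.02% held CACGTG on either strand. Among the lipogenesis genes tested, 15 had a window, of which 11 held CCAAT and 4 CACGTG. A match of letters is a description and not a binding site.

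The sterol synthesis genes, which SREBP-2 drives, were lower than all genes mainly at Week 12 and Week 18. Of 18 tested, 17 had a fitted difference below 0, with a median of -0.82. An unadjusted p under 0.05 was reached by 1, against 1.64% of all genes in the lower direction. The list median was 0.45 at Week 3, 0.01 at Week 9, -1.12 at Week 12, -0.98 at Week 15 and -2.40 at Week 18. At Week 15 6 of 8 were lower (75%), against 87.1% of all genes and their median of -2.81. At Week 18 17 of 18 were lower, against 55.6% of all genes. Without Weeks 15 and 18 the list median was -0.36, with 12 of 18 lower. Idi1, an isomerase of the isoprene units, was lower in each week, at 2.01, 1.73, 3.43, 0.98 and 1.67 in LFC against 1.42, 1.34, 1.59, -0.72 and 0.50 in HF20. The 2 ranges overlapped, since 3 HF20 arrays lay above the lowest LFC array. The fit gave -1.14 (SE 0.49), and -0.94 without Weeks 15 and 18. Of 12 genes of the list with a promoter window, all 12 held CCAAT and 2 held CACGTG.

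Slc2a5, the fructose transporter, was also lower in every week measured. It was at 0.72, 1.05, 5.11, 0.70 and 2.58 in LFC and at -0.74, -0.36, 2.43 and -1.70 in HF20, without a spot at Week 15. The LFC level of Week 12 stood above all others. Its fitted difference was -2.46 (SE 0.67), and -1.85 without Weeks 15 and 18. For the high fat diet alone it was -3.79 against LFC, and HF20 minus HFC was 1.56 (0.63 without Week 12).

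**Figure D3:**
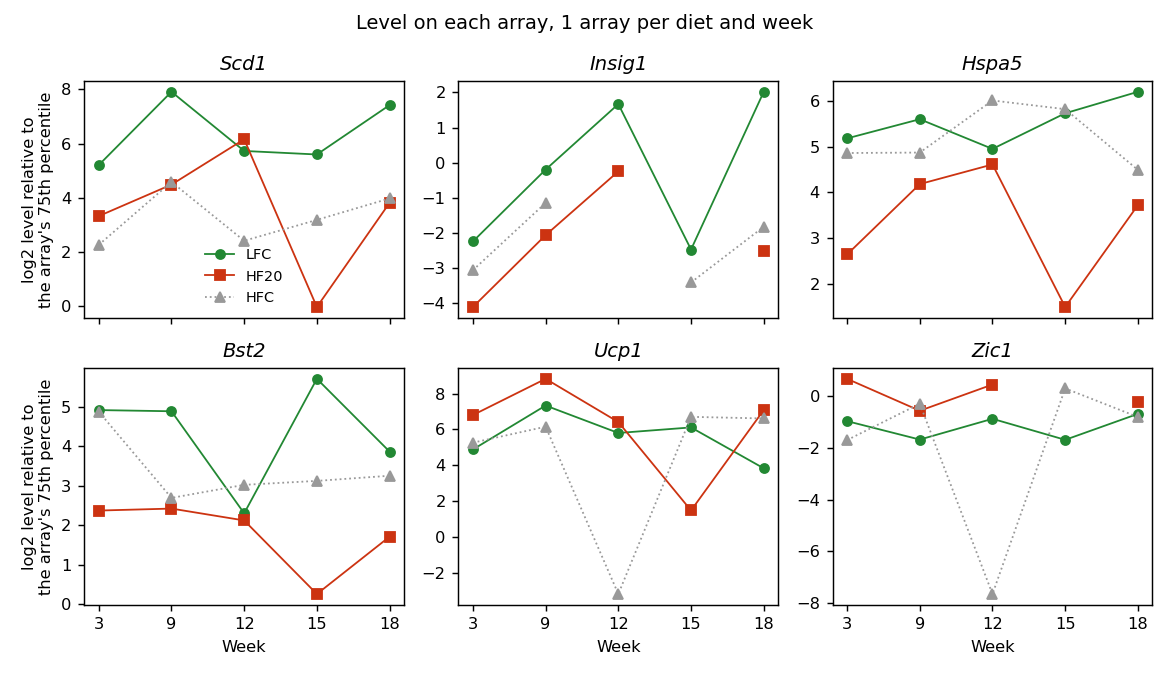
Levels (vertical axis, log2 relative to the 75th percentile of the array) of 6 genes at each week (horizontal axis), 1 array per point, for LFC (green circles), HF20 (red squares) and HFC (grey triangles), with gaps where the spot was left out. Scd1, Insig1, Hspa5 and Bst2 lie lower in HF20 than in LFC in 4 or 5 weeks, Zic1 lies higher in each of the 4 weeks measured, and Ucp1 lies higher at Week 3, 9 and 18 and lower at Week 15 (-4.63). The Week 12 spots of Scd1 and Ucp1 were saturated in both LFC and HF20 and give no direction.

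A second set of lower genes served protein folding in the endoplasmic reticulum (ER). Hspa5, the chief chaperone of that compartment (BiP), was at 5.18, 5.60, 4.95, 5.73 and 6.20 in LFC, a mean of 5.53 ± 0.49 (SD, n = 5). In HF20 it was at 2.64, 4.18, 4.61, 1.49 and 3.72, a mean of 3.33 ± 1.26. All 5 HF20 arrays lay below all 5 LFC arrays, with the narrowest gap at Week 12 (-0.33) and the widest at Week 15 (-4.24). The fitted difference was -2.20 (SE 0.62), or 4.61-fold, with an adjusted p of 0.753 in limma. It was -1.70 without Week 15 and -1.43 without Weeks 15 and 18. HFC minus LFC was -0.32 (-0.67 without Week 12) and HF20 minus HFC -1.88 (SE 0.66), neither past the threshold.

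Manf, an ER protein secreted under stress, was lower in each week, at 1.60, 2.27, 2.49, 2.22 and 2.70 in LFC against 1.42, 1.24, 1.77, -1.43 and 0.91 in HF20 (fitted difference -1.47, SE 0.60, and -0.93 without Week 15). Edem3, which trims the sugars of misfolded glycoproteins, was not on the list. It was at -0.49, -1.56, -0.10, -0.38 and -0.83 in LFC and at -1.92, -3.53, -1.21, -3.60 and -2.64 in HF20, at least 2-fold lower in every week, with a fitted difference of -1.91 (SE 0.51, and -1.50 without Weeks 15 and 18). The groups overlapped, since the LFC array of Week 9 lay below the HF20 array of Week 12.

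Of 22 ER stress genes tested, 17 had a fitted difference below 0, which is 77.3% against 63.5% of all genes, with a median of -0.67. Among these 2 were at an unadjusted p under 0.05, against 1.64% of all genes in the lower direction. Leaving out the weeks that stood apart, 16 were lower without Week 15 (median -0.33) and 18 without Weeks 15 and 18 (median -0.18). By week the median difference of the list was -0.19, -0.75, 0.14, -3.24 and -1.11, and at Week 12 13 of 22 genes were higher in HF20. The median deviation of the list from its mean over the 10 arrays ran from 0.34 to 0.66 in LFC. In HF20 it ran from -2.49 to 0.28, with Week 15 lowest. The ranges did not overlap, but LFC Week 3 (0.34) and HF20 Week 12 (0.28) were close. Apart from Week 15 the lowest HF20 array was at -0.49. Over all genes the deviation ran from 0.08 to 0.21 in LFC and from -2.31 to 0.19 in HF20. The stress factors themselves were spread: Atf6 was at -1.04, Xbp1 at -0.31, Ddit3 at -0.30 and Atf4 at 0.47. The upstream bases of Hspa5 (chr2:34771840-34772089, plus strand, GRCm38.p6) are shown with the ER stress element, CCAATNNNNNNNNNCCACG, in capitals.
Hspa5: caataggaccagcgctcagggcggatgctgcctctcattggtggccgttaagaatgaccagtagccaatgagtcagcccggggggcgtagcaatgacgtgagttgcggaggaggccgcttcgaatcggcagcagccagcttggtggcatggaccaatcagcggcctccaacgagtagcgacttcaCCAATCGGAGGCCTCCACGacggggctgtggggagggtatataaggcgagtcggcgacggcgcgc

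The element began 65 bases before the start. It was present in 0.113% of all windows, 37 in number, searched on both strands, and in 7 of the 19 ER stress genes that had a window.

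Genes of interferon and inflammation were lower at some weeks. Bst2, or tetherin, an interferon-induced protein that holds budding viruses at the cell surface, was at 4.91, 4.88, 2.30, 5.70 and 3.86 in LFC and at 2.37, 2.42, 2.12, 0.26 and 1.71 in HF20. LFC was high in 4 weeks and close to HF20 at Week 12, where the groups overlapped. Over all weeks the difference was -2.56 (SE 0.71), or 5.88-fold, and -1.73 without Weeks 15 and 18. HFC minus LFC was -0.94 and HF20 minus HFC -1.61. Cxcl10, a chemokine that draws activated T cells, was at 2.52, 0.22, -2.61, 2.55 and 0.14 in LFC and at 0.60, -0.53, -3.95, -1.47 and -1.87 in HF20. Its level varied more between weeks than between diets, and within each week HF20 was lower, with a fitted difference of -2.01 (SE 0.58, and -1.34 without Weeks 15 and 18). On the HFC arrays it was at 3.69 at Week 12, above LFC, and between -2.45 and 2.05 at the other 4 weeks, below LFC in each. HFC minus LFC was thus 0.25 with Week 12 and -1.26 without it, and HF20 minus HFC -2.26 and -0.92.

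The rest of the interferon list differed less. Of 21 genes tested 16 had a fitted difference below 0 (median -0.44), 2 of them at an unadjusted p under 0.05 (against 1.64% of all genes). The other of these, Iigp1, a GTPase against intracellular parasites, was lower in each week (-0.17, -1.51, -1.60, -4.14 and -0.43) with a fitted difference of -1.57 (SE 0.65, and -0.93 without Week 15). By week the list median was -0.08, -0.94, 0.17, -3.97 and -0.04, lower in 20 of 21 genes at Week 9 and near the level of all genes at Week 3, 12 and 18. Of 12 inflammatory genes tested 8 were below 0, with a median of -0.54. Without Weeks 15 and 18 all 12 were, with a median of -0.82, while at Week 18 9 of 11 were higher in HF20 (1.26). Ccl2, a chemokine for monocytes, was 1.01 higher at Week 3 and lower at Week 9, 12 and 18 (-2.41, -2.59 and -2.45).

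The windows of both genes are shown for the interferon element, written here as GAAANNGAAA and in capitals. Bst2 lies at chr8:71537473-71537722 on the minus strand and Cxcl10 at chr5:92348890-92349139 on the minus strand of GRCm38.p6.
Bst2: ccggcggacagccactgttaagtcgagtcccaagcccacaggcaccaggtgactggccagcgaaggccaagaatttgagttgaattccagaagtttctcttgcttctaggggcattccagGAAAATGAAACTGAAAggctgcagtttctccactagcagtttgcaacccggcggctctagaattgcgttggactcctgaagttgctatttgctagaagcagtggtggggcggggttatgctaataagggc
Cxcl10: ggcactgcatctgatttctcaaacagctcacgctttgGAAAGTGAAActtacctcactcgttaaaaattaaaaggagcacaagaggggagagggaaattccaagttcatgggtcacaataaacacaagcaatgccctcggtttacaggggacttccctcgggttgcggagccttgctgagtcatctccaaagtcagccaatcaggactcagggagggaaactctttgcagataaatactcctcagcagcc

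In Bst2 a pair of overlapping matches began 130 and 124 bases before the start, and in Cxcl10 1 match began at 213. The element was in 2.98% of all windows and in 11 of the 16 interferon genes with a window.

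The remaining lower genes named by size of p had other roles. Golga7b, related to a protein that carries palmitoyl transferases, was at -2.05, -1.47, 0.43, -2.44 and -1.39 in LFC and at -4.23, -2.85, -2.68, -4.33 and -4.50 in HF20, with no overlap. Its fitted difference of -2.34 (SE 0.50) hardly moved without Week 15 (-2.45) or without Weeks 15 and 18 (-2.22). HFC minus LFC was -2.26 and HF20 minus HFC -0.08. The probe was dim, well above background on 4 LFC and 2 HF20 arrays. Orm2, an acute phase protein of plasma, was at -1.50, 0.11, 2.68, -1.55 and 2.56 in LFC and at -3.72, -1.18, 1.18, -5.40 and -0.78 in HF20. It was at least 2-fold lower in every week, although the groups overlapped, with a fitted difference of -2.44 (SE 0.56, and -1.67 without Weeks 15 and 18). HFC minus LFC was -2.51 and HF20 minus HFC 0.07, and without Week 12 they were -1.69 and -0.98.

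Tnfrsf12a, the receptor of the cytokine TWEAK, was at 1.84, 3.22, 2.13, 2.95 and 4.08 in LFC and at -0.08, 0.65, 0.63 and -0.54 in HF20, again with no spot at Week 15. All 4 HF20 arrays lay below the 5 LFC arrays. The fitted difference was -2.65 (SE 0.68), or 6.30-fold, with HFC minus LFC at -0.96. Ddx46, a helicase of RNA splicing, had a fitted difference of -2.17 (SE 0.61), but its other probes lay between -0.49 and -0.02.

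Of the 10 higher genes named, 7 were well above background on 3 or fewer LFC arrays. Slc11a2, the transporter that brings iron into cells, was at -1.96, -0.81, -3.43, -1.28 and -1.96 in LFC and at 0.86, 0.05, -2.08, 1.40 and 3.72 in HF20. Every HF20 array was above its LFC pair, and the HF20 array of Week 12 alone lay within the LFC range. The fitted difference was 2.68 (SE 0.71), or 6.41-fold, and 1.68 without Weeks 15 and 18, while a second probe of the gene gave -0.43. Smpd3, a neutral sphingomyelinase that makes ceramide, was 1.67 higher (SE 0.47) and at least 2-fold higher in each week. On the HFC arrays it was at -2.43, -4.06, 2.17, 1.37 and -1.55, against -2.55, -1.12, -4.07, -3.54 and -2.77 in LFC. HFC was thus close to LFC at Week 3, below it at Week 9 and above it later. HFC minus LFC was 1.91 and HF20 minus HFC -0.24, or 0.82 and 0.83 without Week 12.

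Gchfr, the protein that regulates GTP cyclohydrolase and with it the cofactor of nitric oxide synthases, was at 0.66, 2.04, -0.72, 0.47 and -2.32 in LFC and at 1.37, 3.44, 3.33 and 1.77 in HF20. The gap was small at Week 3 and wide at Week 12 and Week 18. Its fitted difference was 2.57 (SE 0.75), with HFC minus LFC at 0.04 and HF20 minus HFC at 2.52. Vash1, an inhibitor of vessel growth that endothelial cells make, was at -1.73, -2.08, -2.58, -3.21 and -2.55 in LFC and at -0.09, -0.74, -2.54, 0.51 and 1.42 in HF20, apart in 4 weeks and close at Week 12 (fitted difference 2.14, SE 0.67, and 1.01 without Weeks 15 and 18). Tulp1, a protein of photoreceptors, was at -1.06, -1.86, -6.53, -2.49 and -4.63 in LFC and at 0.20, 2.39, -4.69 and -1.63 in HF20, with no spot at Week 15. It was higher in each of the 4 weeks, though its level at Week 12 was low under both diets, and the fitted difference was 2.59 (SE 0.67). The other 5 genes of this set were Ms4a10, Ugt8a, Sohlh2, Vmn1r89 and Kif1a, at 1.90 to 2.75, and Ms4a10, Ugt8a and Vmn1r89 were well above background on 2 of 5 LFC arrays each.

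Genes of the brown fat cell were mostly higher in HF20 at Week 3 and Week 9, and the fit over 5 weeks did not show this. Ucp1 was at 4.88, 7.33, 5.80, 6.11 and 3.83 in LFC and at 6.80, 8.82, 6.41, 1.48 and 7.08 in HF20. HF20 lay above LFC at Week 3, 9 and 18, by 1.92, 1.49 and 3.26, and below it at Week 15, with a difference of -4.63. Both Week 12 spots were saturated and give no direction. The fitted difference was 0.53 (SE 1.01, adjusted p 0.861 in limma), and 1.82 without Week 15, both with the Week 12 pair, and a second probe gave 0.61. On HFC arrays the level was 5.26, 6.15, -3.18, 6.70 and 6.61, with Week 12 far below, an array on which 11.1% of spots had been left out. Zic1, a transcription factor that marks the brown fat lineage, was at -0.98, -1.69, -0.89, -1.70 and -0.70 in LFC and at 0.65, -0.58, 0.43 and -0.24 in HF20, with no overlap. Its fitted difference was 1.13 (SE 0.55), or 2.19-fold, and a second probe gave 1.03. Gk, glycerol kinase, which brown fat uses to re-esterify fatty acids, was at least 2-fold higher in each of the 4 weeks measured, with a fitted difference of 1.76 (SE 0.64, and 1.19 without Weeks 15 and 18).

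Over the 15 brown fat genes tested, 9 had a fitted difference below 0 (median -0.31). In the higher direction 1 was at an unadjusted p under 0.05 (Gk), against 1.85% of all genes. The groups did not overlap for 1 (Zic1, with 4 HF20 arrays), against 0.0969% of all genes in the higher direction. The list median was 0.75 at Week 3 and 0.86 at Week 9, with 3 of 15 genes lower at each (20%, against 43.6% and 49.6% of all genes). At Week 12 the spots of 5 genes were saturated on at least 1 array, and 5 of the other 10 were higher. The median was -2.58 at Week 15 and -0.28 at Week 18. The general fat cell genes gave 0.69, 0.37, -3.60 and -1.66 at Week 3, 9, 15 and 18, and at Week 12 10 of 16 were saturated on at least 1 array and the other 6 were all higher (1.05). Adipoq was higher at Week 3 and 9 and lower at Week 15 and 18, with both Week 12 spots saturated and a fitted difference of -0.34 (SE 0.66).

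Fatty acid oxidation differed in direction between the weeks. The list holds the enzymes that carry fatty acids into mitochondria and cut them to acetyl-CoA. At each of Week 3 and 9, 16 of 18 genes were higher in HF20, with medians of 1.16 and 1.38 against 0.10 and 0.01 over all genes. At Week 12 the spots of 10 genes were saturated on at least 1 array, and 6 of the other 8 were higher (0.43). At Week 15 all 13 genes with a spot were lower (-3.91), as were 87.1% of all genes (6625 of 7607, median -2.81). At Week 18 15 of the 17 measured were lower (-1.56), against 55.6% of all genes (8512 of 15323). Over 5 weeks 15 of 18 were below 0 (median -0.21), and without Weeks 15 and 18 17 of 18 were above 0 (median 1.06), with the saturated pairs of Week 12 included. Hadh, which catalyses the third step of the cycle in mitochondria, was at 0.06, 1.41, -4.04 and -1.77 as a difference at Week 3, 9, 15 and 18. The macrophage list stayed near all genes at Week 3, 9 and 12, at -0.13, -0.16 and 0.06.

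**Figure D4:**
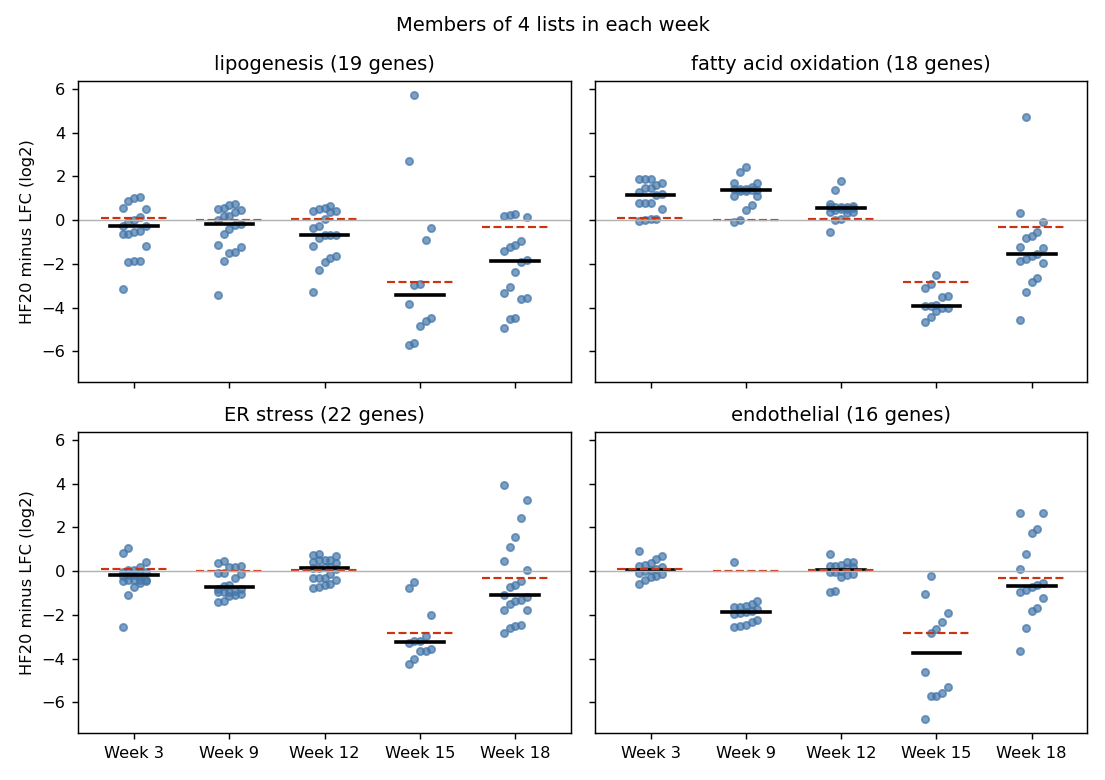
The log2 difference HF20 minus LFC (vertical axis) by week (horizontal axis) for the tested members of the lipogenesis, fatty acid oxidation, ER stress and endothelial lists; each blue point is a gene, the black line the list median and the red dashed line the median over all genes tested. Fatty acid oxidation lies at 1.16 and 1.38 at Week 3 and 9, above the red line, and at -3.91 at Week 15, below it; at Week 12 10 of its 18 genes had a saturated spot. Lipogenesis lies below the red line in each week.

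Endothelial genes were mostly lower at Week 9. Of 16 tested, 15 had a fitted difference below 0 (median -1.13), 2 at an unadjusted p under 0.05 (against 1.64% of all genes). The list median was 0.07 at Week 3, -1.85 at Week 9 (15 of 16 lower, against 49.6% of all genes), 0.07 at Week 12, -3.72 at Week 15 (12 of 12 lower, against 87.1% of all genes and their median of -2.81) and -0.68 at Week 18. It was -0.59 without Week 15 and -0.63 without Weeks 15 and 18. Kdr, the main VEGF receptor, had differences of 0.18, -1.83, -0.18, -6.77 and -3.65, and Robo4, a receptor that keeps vessels tight, 0.39, -2.51, -0.14, -5.58 and -1.67. Both were near LFC at Week 3 and 12, and without Weeks 15 and 18 their fitted differences of -2.45 (SE 0.96) and -1.90 (SE 0.83) were -0.61 and -0.75. Apln, the apelin ligand, was the 1 gene of the list with a fitted difference above 0 (0.69), and its receptor Aplnr was at -1.28 (SE 0.67), with HF20 minus HFC at -1.75.

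Genes of macrophages, the cells that the labels name, had small fitted differences, though single weeks differed. The F4/80 antigen Adgre1 was at 1.82, 2.90, 0.44, 1.19 and 1.38 in LFC and at 1.64, 2.28, 0.45, -1.42 and 1.34 in HF20, with the largest gap at Week 15 (fitted difference -0.69, SE 0.55, and -0.21 without Week 15). Cd68, a lysosomal glycoprotein, was at 0.19 (SE 0.55, adjusted p 0.909 in limma) and Mrc1, the mannose receptor of alternatively activated cells, at 0.26 (SE 0.61, adjusted p 0.886). Of 20 macrophage genes 11 had a fitted difference below 0, with a median of -0.08 against -0.27 for all genes. The macrophage list median was -1.23 at Week 15 and 0.72 at Week 18 (15 of 20 higher), against -2.81 and -0.32 for all genes. The alternative activation list was at 0.02 in the fit. Its medians were -0.76, -0.26, 0.40, -0.98 and 1.58 at Week 3, 9, 12, 15 and 18. At Week 3 9 of 12 were lower, and at Week 18 11 of 12 were higher. Of 9 MHC class II genes 7 were below 0 (median -0.30), and all 9 were without Weeks 15 and 18 (-0.38).

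Markers of other cells differed between the paired arrays by more than most genes did. T cell genes were high on LFC Week 3 (list median 2.93 above the mean of the 10 arrays, with 11 of 12 genes well above background) against -0.75 on HF20 Week 3 (4 of 12), and the reverse held at Week 9 (0.59 and 4 of 12 in LFC, 2.52 and 11 of 12 in HF20). B cell genes followed the same course (2.89 against -0.14 at Week 3, and 0.01 against 2.50 at Week 9). Skeletal muscle genes were lower in HF20 at Week 3 and Week 18 (-2.86 and -3.38) and 0.52 higher at Week 9. At Week 12 6 of 15 had a saturated spot and the other 9 were higher (0.39), and over all weeks 13 of 15 had a fitted difference below 0 (median -1.22). Tnnt3, a fast muscle troponin, was at -3.22 at Week 3 and -5.00 at Week 18. Neutrophil genes had a median difference of 8.26 at Week 18, where all 8 tested were higher. Retnlg, a neutrophil secretory protein, was at -5.43 on LFC Week 18 and 4.60 on HF20 Week 18, and its fitted difference of 1.90 (SE 1.43) became -0.15 without Weeks 15 and 18. Fibroblast and matrix genes were higher in 17 of 18 at Week 3, lower in 17 of 18 at Week 9 and higher in 17 of 18 at Week 12. The part of these cell types in the differences given above was not tested.

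**Figure D5:**
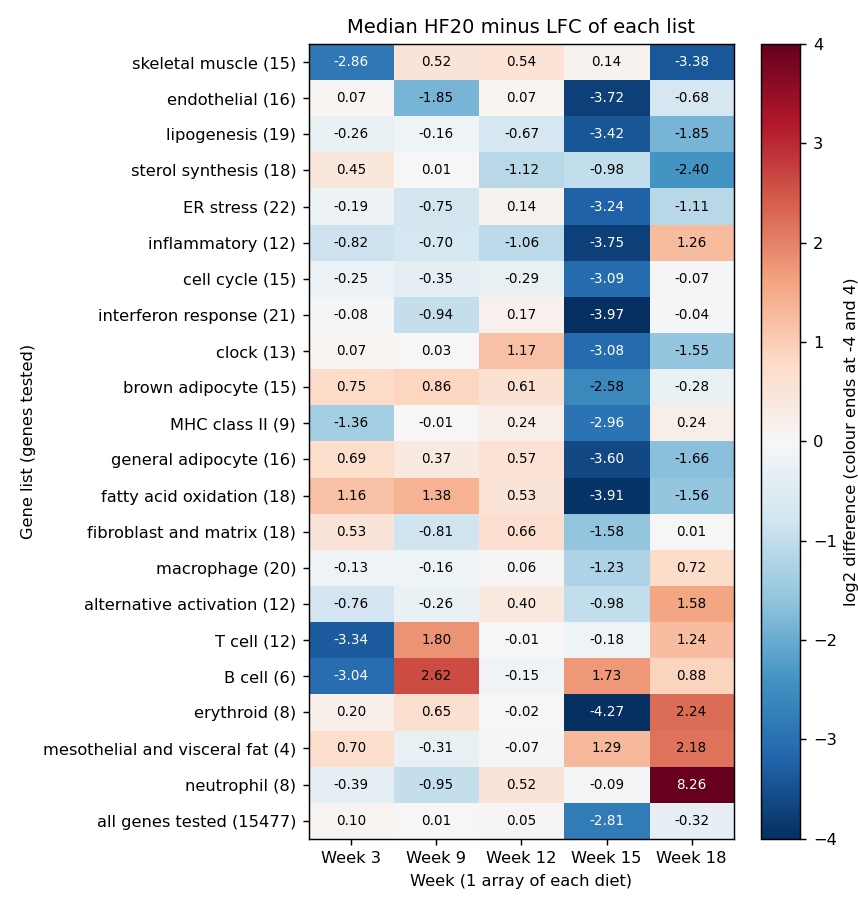
The median log2 difference HF20 minus LFC of each of 21 gene lists, and of all genes, at each week; blue is lower and red higher in HF20, with the colour scale ending at -4 and 4. Week 15 is blue for most lists, fatty acid oxidation and both fat cell lists are red at Week 3 and 9, and neutrophil genes are at 8.26 at Week 18. At Week 12 the medians of these fat cell and oxidation lists include saturated spots, for 5 to 10 genes each.

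Other list medians over all weeks were as follows, against -0.27 for all genes. Of 15 cell cycle genes 12 were below 0 (median -0.47), and of 13 clock genes 10 were (-0.41), with a clock median of 1.17 at Week 12 and 13 of 13 lower at Week 18. The erythroid list was at 0.37, with a median of 2.24 at Week 18 where 7 of 8 were higher. The mesothelial list, with 4 genes tested, was at 0.55. The fibroblast and matrix list was at -0.15, with 14 of 18 below 0.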

How the data were processed

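RNA of brown fat stromal vascular cells was hybridised to 39 Agilent mouse arrays in a single colour, and each array held 1 diet at 1 time point. Weeks are counted from Day 14. Per the file headers, the deposited scanner files give spot intensity that Agilent Feature Extraction (9.1 in the submitters' processing notes) had corrected for background, and arrays were not normalized to each other. A matrix of the whole series, in which the authors give log2 differences between each diet and LFC, was not used.

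Each processed intensity was log2-transformed and set relative to the 75th percentile of its array. That percentile was taken over all spots other than controls, before any were dropped. Spots flagged by the scanner software as nonuniform or as outliers among their repeats were dropped, and repeated spots were averaged (43803 spots, 40628 probes). Symbols were updated through RefSeq accessions for 28136 probes. A probe entered the test with a signal well above background on 5 or more of the 10 arrays and a value on both arrays of at least 3 weeks, which kept 20255 probes of 15477 genes. Arrays have no read depth, and their number and the signal over background limit the precision. Weeks stand in for replicates, so p-values of the fit with the week as a block measure how the difference spread between weeks, part of which may be technical.

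HF20 was tested against LFC with limma 3.58.1 in R 4.3.3 (with the package data.table, version 1.17.8), with the week as a block, two-sided, and p-values were adjusted over all probes tested (Benjamini-Hochberg, threshold 0.05). HFC was set against LFC, and HF20 against HFC, in the same way. The code was tested on simulated data. The members and the 21 gene lists (368 genes, of which 296 could be tested) were chosen with earlier results of these data known. Named genes are those with 1 direction in every week (4 or more) and well above background on at least 4 arrays of the higher group, the 10 with the smallest unadjusted p in each direction without clone and predicted names, up to 4 genes of each list by p, and its defining genes. A gene of these is not reported here. Alternatives changed the normalization, background, filter, block, arrays, weights, test and weeks. Promoter windows are RefSeq sequences on GRCm38.p6. Python 3.11.15 with pandas 2.3.3, numpy 2.4.6 and matplotlib 3.10.9 read the windows and drew the figures.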

Additional observations from a re-analysis of the deposited data

Results flagged for a closer look

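Of 98 sets of 4 or 5 values tested for a sample far from the others, 6 were flagged (6.12%), and chance flags about 1 in 20 groups. The 75th percentile of HF20 Week 15 was 3974 intensity units, far above the other HF20 arrays, and that of LFC Week 12 was 1289, far above the other LFC arrays. The share of spots left out was 71.4% on HF20 Week 15. It was 0.516% on LFC Week 18, small but far from the other LFC arrays. Ugt8a was at -5.84 on HF20 Week 12, well below the other HF20 arrays, and Manf was at -1.43 on HF20 Week 15.

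The HF20 array of Week 6 has no LFC array of the same week and entered no comparison. Of the 46 named genes, 8 lay above the highest of the 5 LFC arrays on it. They were Slc11a2 (-0.42), Ms4a10 (-2.61), Ugt8a (1.11), Sohlh2 (-1.37), Vash1 (-0.53), Kif1a (3.41), Mrc1 (1.43) and Zic1 (-0.63). The highest LFC levels of these genes were -0.81, -2.72, 0.70, -1.82, -1.73, 2.55, 0.61 and -0.70 in the same order, so Ms4a10 and Zic1 were above by little. Scd1 was at 3.77 on that array, below the lowest LFC array (5.21). Of the genes named as lower in every week, Golga7b, Orm2, Ddx46, Hspa5 and Slc2a5 were also below their lowest LFC array. Bst2 (2.99), Tnfrsf12a (2.41), Edem3 (-0.83), Insig1 (-2.25) and Cxcl10 (0.96) lay within the LFC range. Of the higher ones, Tulp1, Smpd3, Gchfr and Vmn1r89 lay within it. The share of all genes above the highest LFC array was not worked out, so the 8 have no background.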

How the results depend on the processing

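The limits are 1 array per diet and week, an HF20 Week 15 array with most spots left out, and an LFC Week 18 array with bright dark corner spots. Fat cell, muscle and leukocyte genes that differed between paired arrays are a further limit. Under each of 20 other settings 0 probes passed the adjusted threshold for HF20 against LFC, with a smallest adjusted p between 0.277 (array weights) and 0.91 (the methods' t-test). With the week not used as a replicate block 0 probes passed, the smallest adjusted p was 0.906 and 567 probes had an unadjusted p under 0.05. Arrays of the same week deviated together at Week 3, 9, 12 and 15 (correlations 0.529, 0.418, 0.778 and 0.164) and not at Week 18 (-0.196).

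The number of probes at an unadjusted p under 0.05, 700 as reported, was 1249 with 25 arrays in the fit, 2739 with all 39 arrays, 1608 with array weights, 1557 with no filter on dim probes, 1221 with normexp, 1449 with outlier spots kept, 343 with the weeks of a shared scan date, 268 with probes well above background on all 10 arrays and 281 without Weeks 12 and 18. It was 1179 without Weeks 15 and 18 and 521 with the percentile over the probes kept, both chosen after seeing the data. Leaving out each week in turn gave 410 (without Week 18) to 818, and 483 without Week 9.

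Of 894 gene values under other settings 860 kept their direction, and 37 of 46 genes never reversed. Part of these genes had been chosen for having 1 direction in every week, so leaving out weeks could not reverse them. Others had been picked by small p in the same data. Both counts were thus partly fixed by the choice of genes and are no independent check of direction. No list median moved by more than 1 SD of the list's own weekly medians in 419 values. Week 15 and Week 18 widened that SD, so this measure could hardly show a move. Fatty acid oxidation went from -0.21 to 1.06 without Weeks 15 and 18 and counted as not moved. With array weights, Adipoq was 0.66, Cd68 -0.0044, Fasn 0.13, Hadh 0.54, Mrc1 -0.18 and Plin1 0.26. Without Weeks 15 and 18, Adipoq was 0.83, Cd68 -0.06, Fasn 0.10, Hadh 0.66, Mrc1 -0.23, Plin1 0.47 and Retnlg -0.15. Without Weeks 12 and 18, Adipoq was 0.04, Cd68 -0.14, Mrc1 -0.23, Retnlg -0.36 and Ucp1 -0.41. With the weeks of a shared scan date, Mrc1 was -0.08, Retnlg -0.18, Tnnt3 0.47 and Ucp1 -0.84. Under normexp Cd68 was -0.11 and Mrc1 -0.09, and with outlier spots kept they were -0.10 and -0.11. Leaving out each week in turn, Adipoq ran from -0.72 to 0.15, Cd68 from -0.06 to 0.32, Fasn from -1.44 to 0.12, Hadh from -1.31 to 0.06, Mrc1 from -0.23 to 0.52, Retnlg from -0.13 to 2.63 and Ucp1 from -0.15 to 1.82. In the same way HFC minus LFC ran from -1.26 to 0.99 for Cxcl10, from -0.83 to 0.85 for Gchfr and from -0.67 to 0.03 for Hspa5, and HF20 minus HFC from -0.54 to 0.43 for Golga7b, from -0.98 to 0.86 for Orm2, from -0.60 to 1.14 for Scd1 and from -1.37 to 0.83 for Smpd3. The cause was not tested.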
